A study of Mus musculus with 46 samples.

Results

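Collagens are proteins of the extracellular matrix in which polypeptide chains wind around each other into a stiff helix. The genes described here are those of the count tables whose Ensembl identifier maps to a mouse symbol made of Col, a number, the letter a and a second number. The annotation holds 44 such symbols. Of these, 42 had counts in the gastrocnemius table and 41 in the spinalis table, so 42 of the 17859 genes in the tables are collagens, 41 of them in both. Col9a1 was in the gastrocnemius table only, and Col6a4 and Col9a3 were in neither. Fibrillar collagens build the banded fibrils that carry tension in tendon and in the sheets of connective tissue around muscle fibres, whereas basement membrane collagens form the thin network wrapped around each muscle fibre and blood vessel. The other collagens coat fibrils, form beaded filaments next to the basement membrane, tie matrix layers together or span the membrane of a cell. Muscle collagen comes mainly from fibroblasts and tendon cells, and loss of collagen VI, a beaded filament collagen, causes muscular dystrophy. By class, 11 fibrillar, 6 basement membrane and 25 other collagens had counts in gastrocnemius, and 11, 6 and 24 in spinalis.

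The study measured muscle RNA in mice with and without Actn3, a gene for a structural protein of fast muscle fibres, after androgen was removed or added. All mice carry the strain label C57BL6 and were wild type (WT) or Actn3 knockout (KO), with no detail of the allele in the labels. In the first experiment, males aged 8 to 10 weeks were castrated (ORX, orchidectomy, which takes away the testes as a source of androgen) or had a sham operation that exposed the testes and left them in place, and the gastrocnemius, a calf muscle, was taken 12 weeks later. In the second experiment, females aged 4 to 5 weeks received a silastic tube under the skin, either empty or filled with 10 mg of the androgen dihydrotestosterone (DHT), and the spinalis, a back muscle, was taken after 6 weeks. Every mouse had buprenorphine and isoflurane at surgery. Each group has 6 libraries, 1 per mouse, except KO-ORX and both groups with empty tubes, which have 5. The labels list 6 KO-ORX samples, 1 more than the table has. The experiments differ in muscle, sex, age and treatment, so no value of one is compared with a value of the other.

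Levels are given as CPM, counts relative to library size after scaling between libraries with the TMM method, and library totals in M, which stands for 1e6 counts. Groups of 6 are described by their lowest, median and highest mouse. A difference is a log2 fold change with its standard error (SE), and a gene is called when q, the edgeR p adjusted over all genes by Benjamini-Hochberg, is at most 0.01, or at most 0.05 for the interaction, which asks whether the treatment difference depends on genotype. Actn3, the gene the knockout removes, served as a check of the labels. In gastrocnemius it was 5977, 6724 and 7052 CPM in WT-sham and 7826, 8964 and 9617 CPM in WT-ORX. KO-sham mice had 35.8, 46.5 and 54.7 CPM, and KO-ORX mice 1 to 5 had 34.3, 45.3, 49.6, 53.1 and 44.4 CPM. No KO library came near a WT library. Spinalis of WT-empty mice 4, 7, 14, 35 and 49 had 9812, 9946, 9641, 8592 and 10353 CPM, and WT-DHT mice had 6164, 7276 and 7703 CPM. KO-empty mice 17, 33, 61, 62 and 64 had 67.5, 83.2, 56.6, 62.1 and 78.4 CPM, and KO-DHT mice 61.4, 66.8 and 77.5 CPM. All 22 spinalis libraries therefore also sat on the side of their label. KO minus WT was -7.18 in sham gastrocnemius (q 2.7e-25) and -7.12 in empty-implant spinalis (q 8.5e-23).

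All 8 markers of muscle fibres on the list used were present in every library. Myh4, which encodes a fast myosin, was the most abundant, at a mean of 45991 CPM in gastrocnemius and 71982 CPM in spinalis. Total counts were 43.4, 47.1 and 50.3 M in WT-sham, 39.9, 45.6 and 55.4 in WT-ORX and 29.5, 34.3 and 37.5 in KO-sham. The largest KO-sham total was therefore below the smallest WT-sham total. In KO-ORX mice 1 to 5 the totals were 29.7, 26.7, 46.8, 48.5 and 41.6 M. The spinalis groups had 37.3, 47.0 and 51.2 (WT-empty), 34.8, 52.0 and 53.9 (WT-DHT), 42.5, 44.1 and 47.8 (KO-empty) and 34.9, 44.2 and 51.7 (KO-DHT).

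Some libraries stood apart and are described before the results that rest on them. KO-ORX mice 1 and 2, the smallest libraries of that group, had 1755 and 843 CPM of Col1a1 where mice 3, 4 and 5 had 216, 352 and 208 CPM. Within KO-ORX they also had the most Tnmd, a tendon cell gene, at 53.3 and 49.2 CPM against 17.1 to 25.7 CPM. Tnmd was also high in other groups, at 49.4 CPM in WT-sham mouse 5 and 43.9 CPM in WT-ORX mouse 4. Ibsp, a bone matrix gene on none of the lists used and picked after its values were seen, was 20.4 CPM in KO-ORX mouse 2 and 2.61 in mouse 1, against at most 0.216 in mice 3 to 5. It was 23.3 CPM in WT-sham mouse 5, 16.8 in KO-sham mouse 5 and 10.9 in WT-ORX mouse 3, and also above 2 CPM in WT-sham mouse 2 (2.61), WT-ORX mice 4 (7.3) and 5 (4.96) and KO-sham mouse 1 (5.87). Ibsp was not called for ORX in WT (-0.24, q 0.95) or KO mice (0.21, q 0.95). Acan, the aggrecan gene of cartilage, reached 2 CPM or more in WT-sham mouse 5 (8.63), WT-ORX mouse 4 (2.40), KO-sham mouse 5 (3.18), KO-ORX mouse 2 (3.79), WT-DHT mouse 5 (6.47) and KO-empty mice 17 (2.35) and 61 (2.31), and was at 0 in some other libraries. Col2a1, the cartilage fibril collagen, was 37.5 CPM in WT-DHT mouse 5 and 19.9 CPM in KO-empty mouse 61, and at most 1.15 CPM in the other spinalis libraries. WT-DHT mice 39 and 50 differed from the other 4 mice of their group over all genes, with a chi-square per degree of freedom between libraries, which is 1 for counting error alone, of 285 to 631, against 20.8 to 42.5 among those 4. No pair of mice within another group exceeded 269. KO-DHT mice 6 and 25 stood at 111 to 269 from the other 4 mice of their group, against 24.6 to 91.4 among those 4. They were left out only 1 at a time. WT-DHT mouse 39 also had the smallest total of spinalis (34.8 M). Results for collagens and for other named genes are therefore also given without KO-ORX mice 1 and 2 and without the 7 Acan libraries. In gastrocnemius they are also given without the 4 libraries with Ibsp at 10 CPM or more, 1 in each group. For comparisons with WT-DHT they are also given without WT-DHT mice 39 and 50. All 4 sets were chosen after the data were seen, the first by Col1a1 itself. The first leaves KO-ORX with mice 3, 4 and 5, and the Acan set leaves KO-empty with mice 33, 62 and 64. Where a call is lost in these fits, the mice left out and the smaller groups cannot be told apart. The Ibsp limit was also set after its values were seen. At the 2 CPM used for Acan it would leave out 9 libraries, a fit that was not run, so WT-sham mouse 2, WT-ORX mouse 5 and KO-sham mouse 1 were left out only 1 at a time. Each sample is a piece of whole muscle, in which fewer cells of a type and less RNA per cell cannot be told apart.

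Per kilobase of exon and averaged over all 23 gastrocnemius libraries, the most abundant collagens were Col1a1 (51.5 CPM per kb), Col1a2 (44.8) and Col3a1 (37.2), followed by Col6a1 (25.3) and Col4a1 (21.4). The lowest was Col25a1, at 0.0314 CPM per kb. Over the 22 spinalis libraries the order was Col3a1 (81.6 CPM per kb), Col4a1 (45.3), Col1a1 (38.7), Col1a2 (36.3) and Col6a1 (33.4), and the lowest was again Col25a1, at 0.0297. The order differed between groups. In KO-sham Col3a1 came first (36.3 CPM per kb), before Col1a2 (30.5) and Col1a1 (27.6), whereas the KO-ORX mean of Col1a1 was 103 CPM per kb, with mice 1 and 2 far above the rest. In KO-empty Col3a1 (79.4), Col1a1 (71.1) and Col1a2 (50.8) all came before Col4a1 (42.7). Col4a3 and Col4a4 were minor over all libraries, at 0.474 and 0.545 CPM per kb in gastrocnemius and 0.628 and 0.719 in spinalis.

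Fibrillar collagens together took 914, 1272 and 2174 unscaled CPM (CPM by library total, without TMM) in WT-sham and 1050, 1254 and 1941 in WT-ORX. They took 783, 943 and 1757 unscaled CPM in KO-sham, and 4640, 2872, 1094, 1622 and 1233 in KO-ORX mice 1 to 5. Only KO-ORX mice 1 and 2 exceeded every other gastrocnemius library. Basement membrane collagens took less and varied less, from 189 to 294 unscaled CPM in WT-sham, WT-ORX and KO-sham and from 256 to 339 in KO-ORX. In spinalis the fibrillar sum was 953, 1879, 1079, 1863 and 1626 unscaled CPM in WT-empty mice, and 1065, 1646 and 2945 in WT-DHT. It was 3732, 1564, 1905, 1561 and 2648 in KO-empty mice, and 1451, 1727 and 2097 in KO-DHT. The spinalis groups overlapped, with KO-empty mouse 17 the highest library. The basement membrane sum of spinalis ran from 297 to 498 unscaled CPM in WT-empty and 438 to 569 in WT-DHT, and from 286 to 649 in KO-empty and 500 to 666 in KO-DHT. The other collagens summed to 404 to 943 unscaled CPM in gastrocnemius and 478 to 1063 in spinalis, with overlap between all groups compared.

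**Figure D1:**
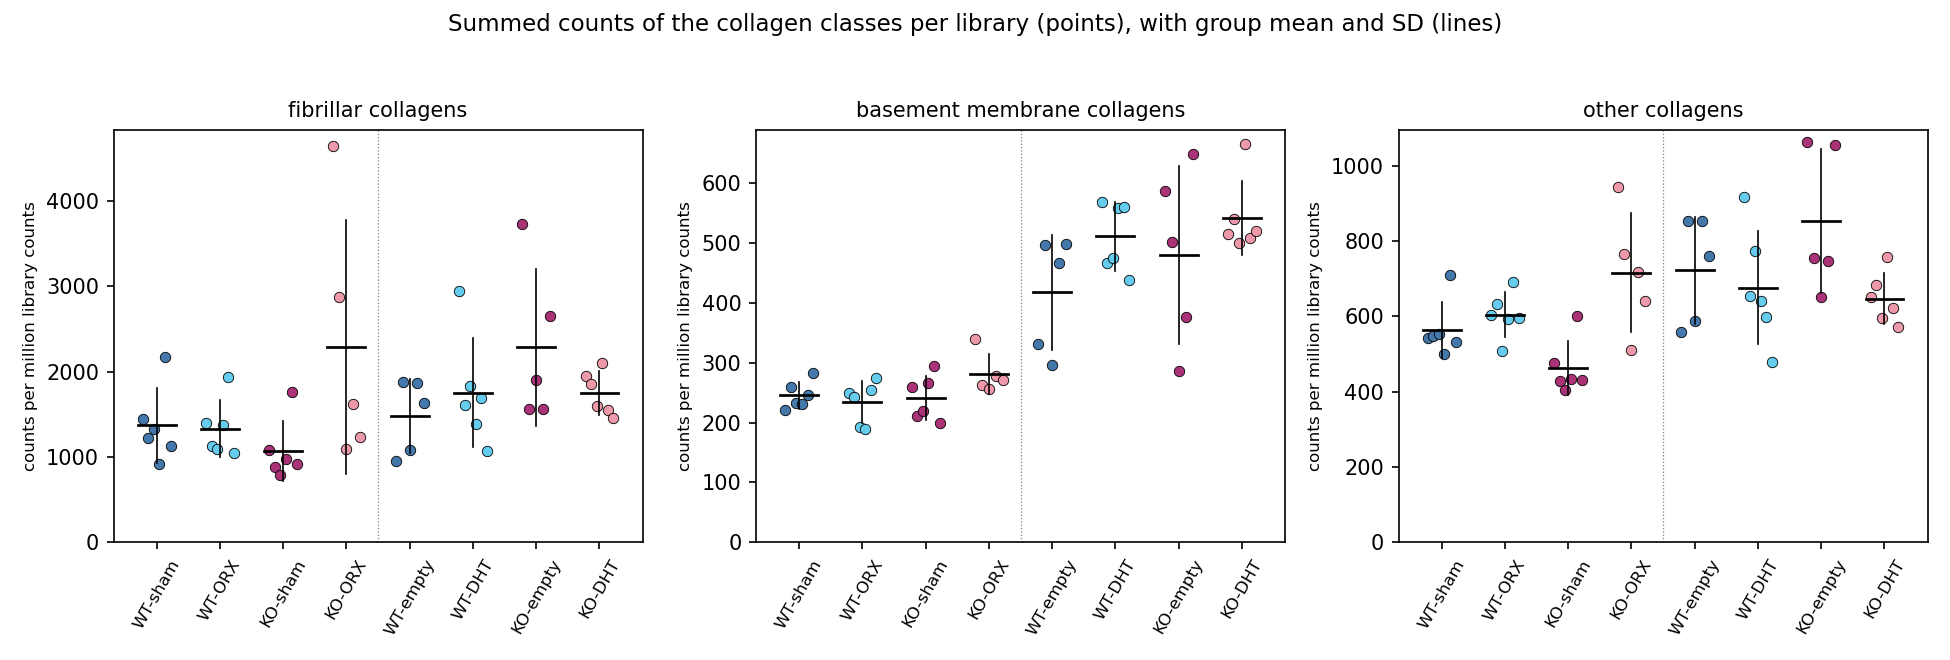
Summed counts of fibrillar, basement membrane and other collagens in each library of the 8 groups, in unscaled CPM, with the mean and SD of each group. The fibrillar sums of KO-ORX mice 1 and 2, at 4640 and 2872, lie above the other gastrocnemius libraries.

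Castration of WT mice was followed by a call for 5 of 42 collagens (11.9% of the list, against 5.45% of all genes), 2 higher (2.04% of all genes) and 3 lower (3.41%). In KO mice 8 of 42 were called (19.0%, against 5.57% of all genes), 7 higher (1.99% of all genes) and 1 lower (3.58%). With all libraries both shares were larger than that of all genes, a difference that was not tested. Without the Acan libraries 4 of 42 were called in WT mice (9.52%, against 3.62% of all genes), with Col7a1 and Col24a1 lost and Col27a1 gained, and 9 of 42 in KO mice (21.4%, against 6.24%). Without the Ibsp libraries the shares were 11.9% (against 3.89% of all genes) in WT and 21.4% (against 6.21%) in KO mice. In KO mice the number depended on single libraries: it was 4 without KO-ORX mouse 1, 5 without KO-ORX mouse 2 or KO-sham mouse 3, 12 without KO-ORX mouse 3, and 2 of 42 without KO-ORX mice 1 and 2 together (4.76%, against 3.09% of all genes). DHT in WT mice was followed by a call for 4 of 41 collagens (9.76%, against 11.3% of all genes), all higher (6.63% of all genes were higher and 4.64% lower), which is near the background and so no result about collagens as a list. The same 4 were called without WT-DHT mice 39 and 50. In KO mice given DHT, 7 of 41 were called (17.1%, against 4.62%), 4 higher (2.86% of all genes) and 3 lower (1.75%). Without the Acan libraries that number was 3 of 41 (7.32%, against 2.2% of all genes), Col14a1, Col4a4 and Col6a6.

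The median log2 fold change of collagens was 0.33 for ORX in KO mice, with 35 positive and 7 negative, where the median of all genes was 0.01. It was -0.04 for ORX in WT mice (17 positive, 25 negative), a direction that disappeared under library-size scaling (21 and 21) and turned without the Acan libraries (24 and 18) or the Ibsp libraries (26 and 16). Library-size scaling moved the median of all genes in KO-ORX minus KO-sham to 0.12, and that of collagens to 0.43. For DHT the median was 0.23 in WT mice (30 positive, 11 negative) and -0.26 in KO mice (14 positive, 27 negative), against -0.01 for all genes in both. Without KO-ORX mice 1 and 2 the KO-ORX median was 0.21, with 33 positive and 9 negative.

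**Figure D2:**
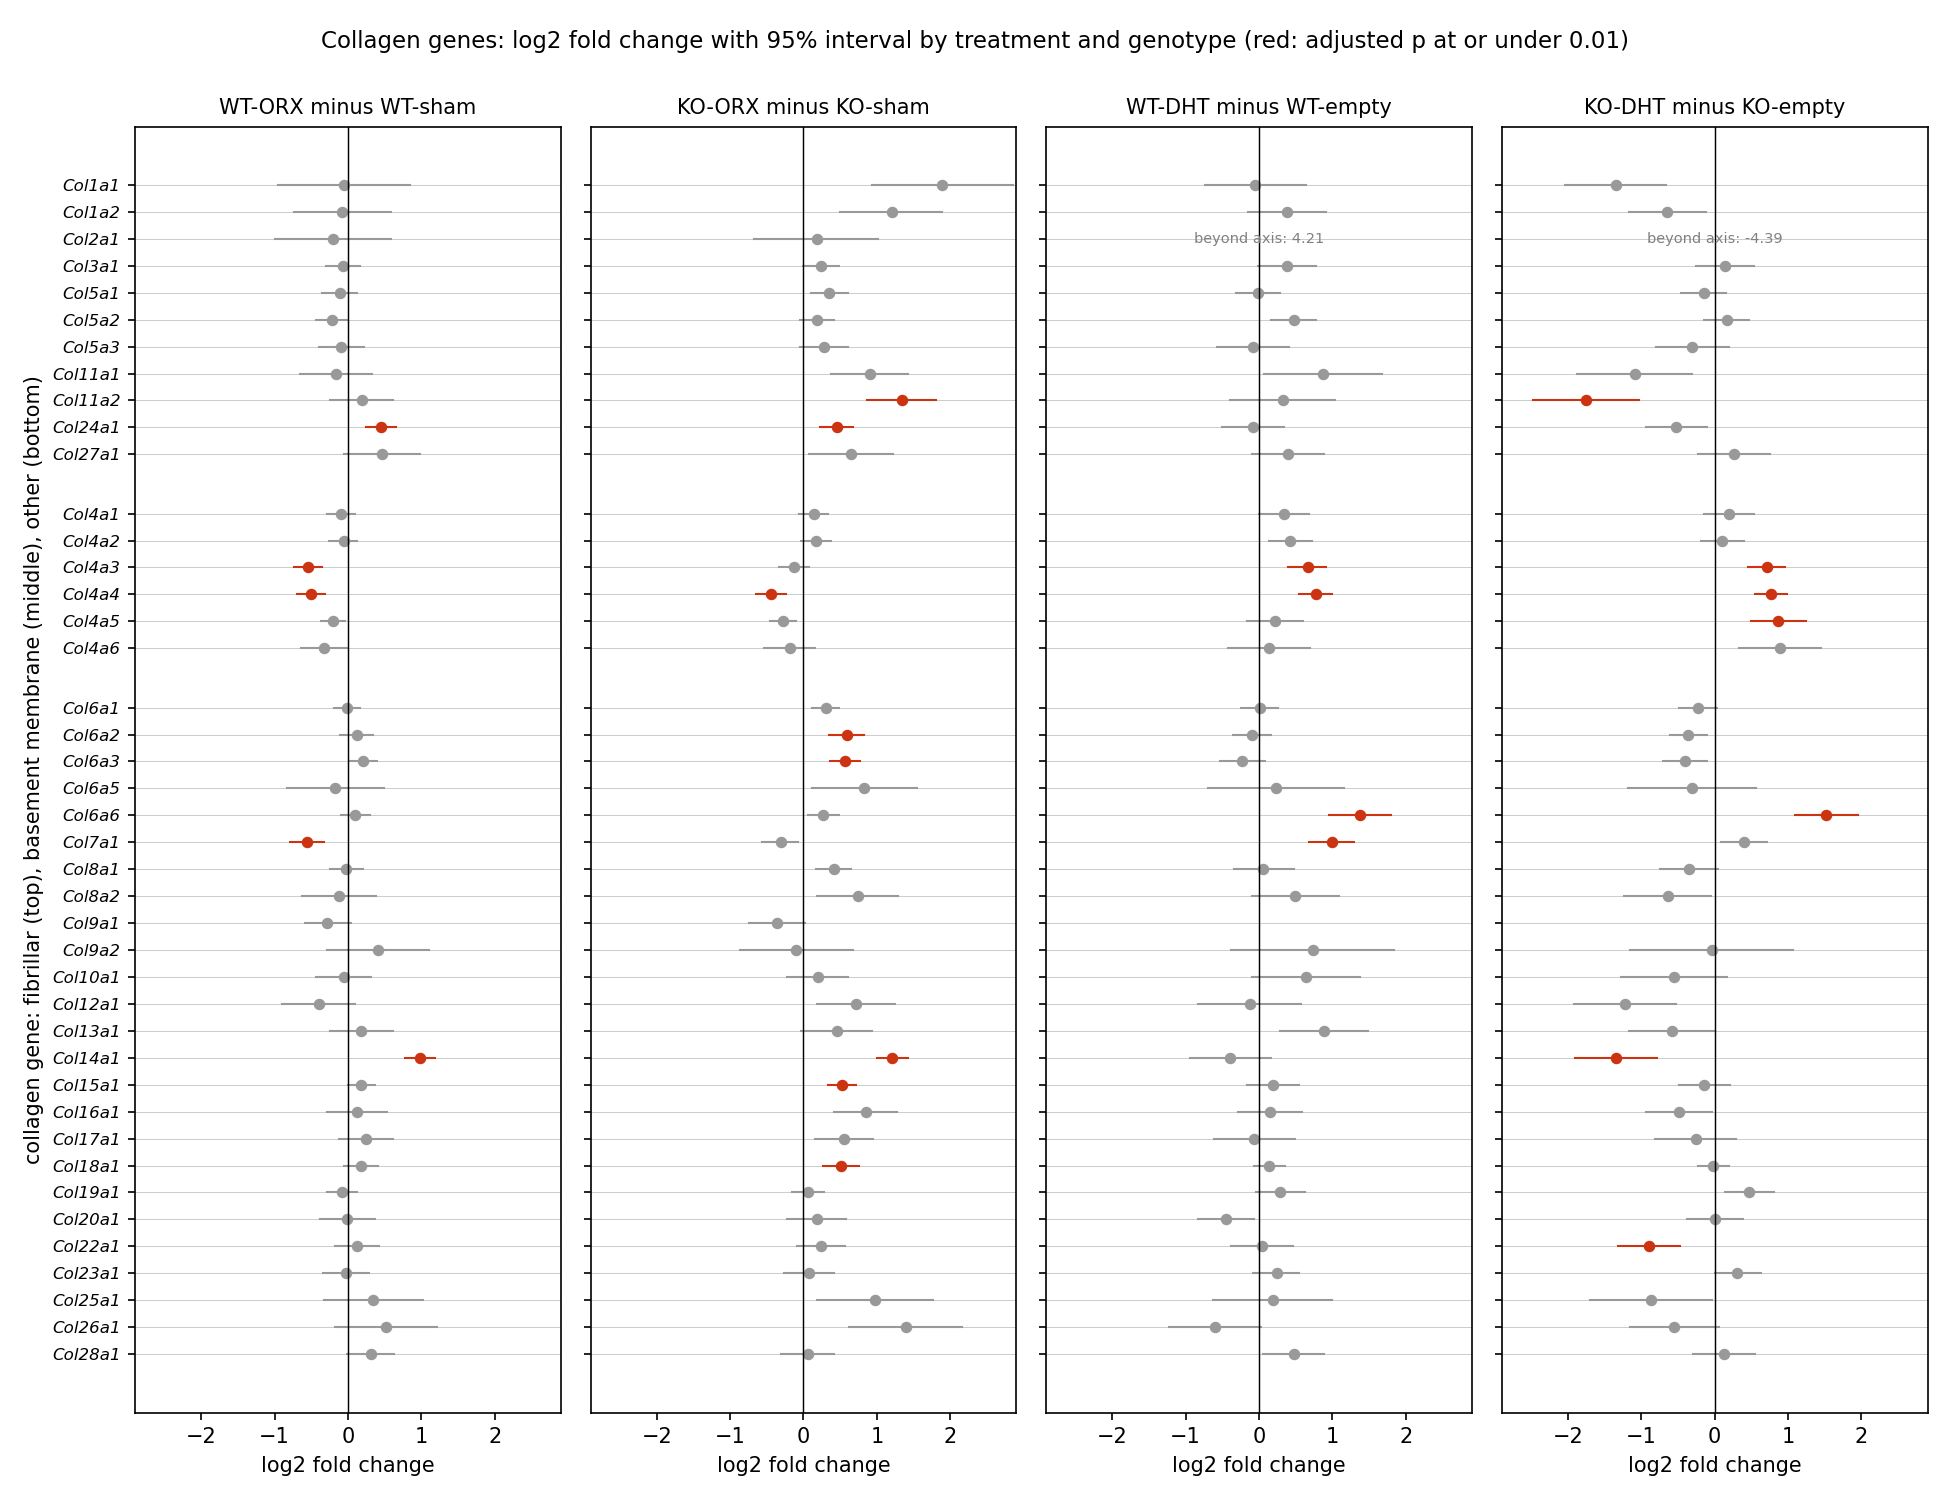
Log2 fold change and 95% interval of every collagen for ORX minus sham and DHT minus empty in each genotype, with called genes in red and the Col2a1 values of the DHT panels, 4.21 and -4.39, written in the panels because they lie beyond the axis. Col14a1 is at 0.98 and 1.21 for ORX, and Col6a6 at 1.37 and 1.52 for DHT.

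Among fibrillar collagens, Col1a1 and Col1a2 encode the chains of collagen I, the main fibril protein of tendon and muscle. Col1a1 was 145, 241 and 559 CPM in WT-sham and 150, 262 and 456 CPM in WT-ORX. KO-sham mice had 87.1, 133 and 428 CPM, against 1755, 843, 216, 352 and 208 CPM in KO-ORX mice 1 to 5. Mice 1 and 2 of KO-ORX lay above every KO-sham mouse and the others within their range. The KO difference, 1.89 ± 0.49 (SE), just missed the threshold (q 0.011). It was called without WT-sham mouse 5 (1.89, q 0.0087), KO-sham mouse 5 (2.35, q 0.002), KO-ORX mouse 3 (2.12, q 0.0045) or KO-ORX mouse 5 (2.12, q 0.0067), with a replicate block (1.78, q 0.0093), under library-size scaling (1.98, q 0.0078) and without the Acan (2.25, q 0.0037) or Ibsp libraries (2.25, q 0.0038). It was 0.51 (q 0.55) without KO-ORX mice 1 and 2. Those q values span the range over all alternatives, 0.002 to 0.55. Col1a2 had the same pattern, with 228, 313 and 686 CPM in KO-sham and 1891, 1179, 355, 561 and 361 CPM in KO-ORX, the first 2 mice again above the rest. Its difference of 1.2 ± 0.36 (q 0.029) was called without KO-sham mouse 5 (1.45, q 0.0081) or KO-ORX mouse 3 (1.40, q 0.0086) and was 0.17 (q 0.82) without KO-ORX mice 1 and 2. The interaction of genotype and ORX was 1.95 for Col1a1 (q 0.31) and 1.28 for Col1a2 (q 0.37), neither called. Without KO-ORX mice 1 and 2 these interactions were 0.57 (q 0.86) and 0.25 (q 0.93). Col3a1, the gene of the thinner collagen III fibrils, was 302, 361 and 398 CPM in KO-sham and 531, 460, 322, 397 and 390 CPM in KO-ORX, overlapping and not called (0.24 ± 0.12, q 0.24). Col5a1, whose product starts fibril assembly, was 26.8, 32.5 and 44.5 CPM in KO-sham and 55.2, 46.5, 30.7, 47.3 and 38.7 CPM in KO-ORX, also overlapping and not called (0.35 ± 0.13, q 0.08). Without KO-ORX mice 1 and 2 the Col5a1 difference was 0.19 (q 0.49).

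The called fibrillar genes were minor ones. Col11a2, a chain of collagen XI, which sets fibril width in cartilage, was 5.77, 7.49 and 13.5 CPM in KO-sham and 37.1, 24.5, 12.9, 23.2 and 14.3 CPM in KO-ORX. The groups met only at KO-sham mouse 5 and KO-ORX mouse 3. Col11a2 rose by 1.34 ± 0.24 (q 0.00057), and every alternative kept the call except leaving out KO-ORX mice 1 and 2, where the value was 0.93 (q 0.016, of a range of 4.1e-05 to 0.016). It was 11.8, 15.4 and 24.3 CPM in WT-sham and 14.8, 18.6 and 23.8 CPM in WT-ORX, which overlapped, and the interaction of 1.15 (q 0.18) was not called. Without KO-ORX mice 1 and 2 that interaction was 0.74 (q 0.62). Col24a1, a minor fibril collagen known from bone, was 7.27, 7.67 and 9.58 CPM in WT-sham and 9.28, 10.6 and 13.2 CPM in WT-ORX. In KO-sham it was 5.81, 7.70 and 9.01 CPM, and in KO-ORX 12.5, 11.1, 8.35, 10.3 and 9.53 CPM. The groups overlapped narrowly in both genotypes. Col24a1 rose by 0.45 ± 0.11 in each (q 0.0059 in WT, 0.0095 in KO). In WT mice the call went without WT-sham mouse 1, 2, 3 or 4 or WT-ORX mouse 4 or 6, with values of 0.39 to 0.43 and q up to 0.022, with thinned counts (0.42, q 0.013) and without the Acan libraries (0.42, q 0.03, of a range of 0.0011 to 0.03). In KO mice it went without WT-sham mouse 1, 2, 3, 4 or 5, WT-ORX mouse 1, 2 or 5, KO-sham mouse 1, 3, 4, 5 or 6 or KO-ORX mouse 1, 2, 4 or 5, with values of 0.38 to 0.48 and q up to 0.042. The KO call of Col24a1 also went with limma-voom (0.42, q 0.024), in a fit of only the groups compared (0.45, q 0.025), without the Acan (0.40, q 0.041) or Ibsp libraries (0.40, q 0.042) and without KO-ORX mice 1 and 2 (0.31, q 0.13, of a range of 0.0021 to 0.13). All 11 fibrillar collagens were positive in KO-ORX minus KO-sham under every scaling (median 0.45, all genes 0.01), and 10 of 11 were without KO-ORX mice 1 and 2 (median 0.30).

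With DHT in KO mice, Col1a1 was 923, 222, 470, 272 and 445 CPM in KO-empty mice 17, 33, 61, 62 and 64 and 132, 168 and 275 CPM in KO-DHT. Mouse 17 was the highest, and mice 33 and 62 lay within the KO-DHT range. The difference of -1.35 ± 0.35 was not called (q 0.014). It was called without WT-empty mouse 4 (q 0.0089), WT-DHT mouse 5 (q 0.008), KO-empty mouse 33 (-1.54, q 0.0067) or KO-empty mouse 62 (-1.5, q 0.0088), and was -0.78 (q 0.16) without the Acan libraries, the range over all alternatives being 0.0067 to 0.16. In WT mice, Col1a1 was 84.4, 230, 153, 280 and 254 CPM with an empty tube and 86.2, 177 and 377 CPM with DHT, which overlapped widely. Col11a2 was 27.5, 4.69, 19.4, 8.81 and 9.68 CPM in KO-empty mice and 3.06, 4.06 and 5.82 CPM in KO-DHT. KO-empty mice 17 and 61, both Acan libraries, were highest, and mouse 33 overlapped the KO-DHT mice. Col11a2 fell by 1.75 ± 0.37 (q 0.0029) and lost the call without KO-empty mouse 17 (-1.35, q 0.016), with limma-voom (-1.53, q 0.016) or without the Acan libraries (-0.89, q 0.039, of a range of 0.00043 to 0.039). In KO-DHT minus KO-empty, 3 fibrillar collagens were positive and 8 negative (median -0.52), and in WT mice 7 were positive and 4 negative (median 0.38), the latter turning to 5 and 6 without the Acan libraries.

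In the basement membrane class Col4a4 was called in both genotypes for ORX, and Col4a3 and Col4a4 in both for DHT. Col4a3 and Col4a4 encode chains of the collagen IV network found beside the main one, which Col4a1 and Col4a2 build. Col4a3 was 4.58, 5.38 and 6.45 CPM in WT-sham and 3.63, 3.67 and 3.95 CPM in WT-ORX. No WT-ORX mouse reached the lowest WT-sham mouse. Col4a3 fell by 0.54 ± 0.10 after ORX in WT mice (q 0.00053, at most 0.0022 under any alternative). In KO mice it was 4.33, 5.01 and 5.86 CPM after sham and 4.4, 5.66, 4.21, 4.08 and 4.86 CPM after ORX, overlapping and not called, and the interaction of 0.41 (q 0.33) was not called either. Col4a4 was 5.56, 6.15 and 7.84 CPM in WT-sham and 4.22, 4.53 and 4.86 CPM in WT-ORX. It was 6.53, 6.94 and 7.79 CPM in KO-sham and 5.28, 4.94, 4.08, 6.52 and 4.86 CPM in KO-ORX. Neither pair of groups overlapped, though KO-ORX mouse 4 came close. Col4a4 fell by 0.50 ± 0.10 in WT mice (q 0.00099) and by 0.44 ± 0.10 in KO mice (q 0.0056). The KO call went without KO-sham mouse 1 (-0.41) or 3 (-0.44) or KO-ORX mouse 1 (-0.45), 2 (-0.43), 3 (-0.37) or 5 (-0.42), with q of 0.012 to 0.019. It also went without KO-ORX mice 1 and 2 (-0.44, q 0.03), without the Acan (-0.44, q 0.021) or Ibsp libraries (-0.44, q 0.021), in a fit of only the groups compared (-0.44, q 0.025) and under library-size scaling (-0.34, q 0.036, of a range of 0.00087 to 0.036).

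With an empty tube Col4a3 was 3.77, 5.45, 3.83, 5.89 and 3.62 CPM in WT mice, against 6.68, 6.93 and 7.95 CPM in WT-DHT. It was 4.60, 5.38, 4.33, 4.42 and 5.67 CPM in KO-empty mice and 6.77, 7.78 and 10.1 CPM in KO-DHT. Every DHT mouse was above every empty-tube mouse of its genotype. Col4a3 rose by 0.66 ± 0.13 in WT (q 0.00058) and by 0.71 ± 0.13 in KO mice (q 0.0007), where the call went without the Acan libraries (0.63, q 0.02, the highest of the alternatives, which began at 3.6e-06). Col4a4 was 4.61, 5.28, 4.42, 5.97 and 4.82 CPM in WT-empty mice and 7.6, 8.54 and 9.81 CPM in WT-DHT. It was 7.27, 7.04, 4.74, 4.93 and 6.05 CPM in KO-empty mice and 9.32, 10.0 and 11.2 CPM in KO-DHT, again without overlap in either genotype. Col4a4 rose by 0.77 ± 0.11 in both (q 1.8e-05 in WT, 5.6e-05 in KO), and no alternative ended either call. Col4a5, whose product joins those of Col4a3 and Col4a4, was 9.88, 10.1, 5.31, 8.27 and 10.6 CPM in KO-empty mice and 12.7, 15.8 and 20.6 CPM in KO-DHT, without overlap. Col4a5 rose by 0.87 ± 0.19 in KO mice (q 0.0051). The call went without KO-empty mouse 61 (0.73), KO-empty mouse 62 (0.85) or KO-DHT mouse 6 (0.78), 16 (0.86) or 40 (0.81), with q of 0.011 to 0.016, and without the Acan libraries (0.73, q 0.047, the highest of the alternatives). In WT mice Col4a5 was 8.33, 12.0, 7.36, 10.5 and 8.51 CPM with an empty tube and 7.30, 10.4 and 17.1 CPM with DHT, overlapping, and its interaction of 0.65 (q 0.24) was not called.

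The abundant collagen IV genes, Col4a1 and Col4a2, were called in no comparison by edgeR. Col4a1 was 147, 152 and 179 CPM in WT-sham, 123, 153 and 170 in WT-ORX, 131, 157 and 187 in KO-sham and 214, 161, 162, 173 and 167 in KO-ORX, where the groups overlapped and KO-ORX mouse 1 was the highest library. Col4a2 in spinalis was 82.2, 120, 76.2, 120 and 128 CPM in WT-empty mice and 128, 138 and 163 CPM in WT-DHT, a difference of 0.42 ± 0.15 that was not called (q 0.054). All 6 basement membrane collagens were negative for ORX in WT mice (median -0.26) and positive for DHT in WT mice (median 0.38) under every setting tried. All 6 were also positive for DHT in KO mice (median 0.74), or 5 of 6 without the Acan libraries. In KO-ORX minus KO-sham 2 were positive and 4 negative (median -0.16). The sum of 6 mural cell markers was 398 to 509 CPM in WT-empty and 505 to 601 in WT-DHT, and 367 to 471 in KO-empty and 481 to 564 in KO-DHT, which did not overlap in KO mice. That of 6 endothelial markers was 162 to 211 and 210 to 266 CPM in WT, and 182 to 235 and 198 to 275 in KO mice, overlapping in both. The sums were not tested, and the part of vessels in the collagen IV results was not tested either.

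Col4a3 and Col4a4 lie head to head on opposite strands, and in the RefSeq gene bounds of GRCm38.p6 their 5 prime ends share 114 bases, while those of Col4a1 and Col4a2 share 85 bases and Col4a5 and Col4a6 are 1274 bases apart. The promoter window of Col4a4 is shown because Col4a4 was called for both treatments in both genotypes, with the 114 bases shared by the bounds of the 2 genes in capitals. It is from RefSeq on GRCm38.p6, chr1:82586800-82587099, minus strand. The windows of Col6a6 (chr9:105828036-105828335, minus strand) and Col7a1 (chr9:108953336-108953635, plus strand), both called with DHT, follow for comparison, with no capitals.
Col4a4: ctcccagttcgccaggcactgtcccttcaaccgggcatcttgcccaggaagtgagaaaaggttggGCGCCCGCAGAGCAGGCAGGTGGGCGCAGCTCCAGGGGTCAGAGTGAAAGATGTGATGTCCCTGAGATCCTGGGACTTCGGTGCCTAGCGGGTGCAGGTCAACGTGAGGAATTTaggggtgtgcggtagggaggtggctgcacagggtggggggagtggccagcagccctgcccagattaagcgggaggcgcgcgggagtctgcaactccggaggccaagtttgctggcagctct
Col6a6: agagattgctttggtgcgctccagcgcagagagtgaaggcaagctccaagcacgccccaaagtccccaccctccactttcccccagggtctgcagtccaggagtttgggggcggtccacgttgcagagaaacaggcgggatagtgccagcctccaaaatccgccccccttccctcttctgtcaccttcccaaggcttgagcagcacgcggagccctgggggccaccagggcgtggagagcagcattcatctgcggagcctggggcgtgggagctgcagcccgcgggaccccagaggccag
Col7a1: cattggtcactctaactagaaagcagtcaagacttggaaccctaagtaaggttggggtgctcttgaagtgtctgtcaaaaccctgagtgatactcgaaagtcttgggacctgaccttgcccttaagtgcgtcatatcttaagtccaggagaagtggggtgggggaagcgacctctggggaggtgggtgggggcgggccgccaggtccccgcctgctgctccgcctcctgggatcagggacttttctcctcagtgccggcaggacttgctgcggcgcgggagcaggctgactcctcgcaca
The letters TGTTCT, one arm of the word bound by androgen and glucocorticoid receptors, were searched on both strands and are in none of these 3 windows. They are in 6233 of all 32851 promoter windows (19.0%) and in 2 of the 38 windows of 35 collagen genes, those of Col9a1 and Col20a1 (5.26%). The longer word, AGAACA, any 3 letters and then TGTTCT, is in 3 of all windows (0.00913%) and in no collagen window. In GENCODE M21, exons of Col4a1, Col4a2, Col4a3, Col5a1, Col6a6, Col10a1, Col15a1 and Col22a1 overlap exons of a gene on the other strand, and the strand setting used in counting is not stated.

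Col6a1, Col6a2 and Col6a3 encode the chains of collagen VI, which forms beaded filaments at the surface of muscle fibres. Col6a2 was 37.0, 43.3 and 58.0 CPM in KO-sham and 96.1, 68.8, 47.7, 69.4 and 61.8 CPM in KO-ORX. Col6a3 was 97.4, 107 and 134 CPM in KO-sham and 223, 167, 118, 170 and 151 CPM in KO-ORX. For both genes KO-ORX mouse 1 was highest and mouse 3 lay within the KO-sham range. Col6a2 rose by 0.59 ± 0.12 (q 0.0021), which was 0.44 and not called without KO-ORX mouse 1 and 0.39 (q 0.042) without mice 1 and 2. A fit of only the groups compared also ended the Col6a2 call (0.59, q 0.021). Col6a3 rose by 0.56 ± 0.10 (q 0.0007), which no single library ended and which was 0.38 (q 0.015) and not called without mice 1 and 2, and just missed in a fit of only the groups compared (0.56, q 0.01). The highest q over the alternatives was 0.042 for Col6a2 and 0.015 for Col6a3. Col6a1 was 93.1, 95.8 and 118 CPM in KO-sham and 162, 137, 97.7, 112 and 107 CPM in KO-ORX, overlapping and not called (0.30 ± 0.09, q 0.04), except without KO-ORX mouse 3 (0.37, q 0.0076). Without KO-ORX mice 1 and 2 the Col6a1 difference was 0.08 (q 0.62). In WT gastrocnemius Col6a2 was 46.6, 54.0 and 58.5 CPM after sham and 51.7, 58.4 and 62.1 CPM after ORX. Col6a3 was 107, 122 and 125 CPM after sham and 119, 142 and 150 CPM after ORX. Both pairs overlapped, neither was called, and the interactions, 0.47 (q 0.33) and 0.36 (q 0.40), were not called. Without KO-ORX mice 1 and 2 these interactions were 0.27 (q 0.75) and 0.18 (q 0.81). With DHT none of the 3 was called in either genotype by edgeR, the nearest being Col6a2 in KO mice (-0.36 ± 0.13, q 0.085) and Col6a3 in KO mice (-0.40 ± 0.15, q 0.097).

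Col6a6 encodes a further collagen VI chain, much less abundant in both muscles. It was 2.92, 6.79, 7.39, 12.5 and 4.30 CPM in WT-empty mice and 14.5, 17.7 and 22.1 CPM in WT-DHT. In KO-empty mice it was 7.38, 7.6, 8.27, 9.42 and 8.10 CPM, and in KO-DHT 21, 23.0 and 26.8 CPM. Every DHT mouse was above every empty-tube mouse of its genotype, with WT-empty mouse 35 the nearest. Col6a6 rose by 1.37 ± 0.22 in WT (q 5e-05) and by 1.52 ± 0.22 in KO mice (q 4.1e-05), calls that every alternative kept.

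Among the collagens that coat fibrils, Col14a1, whose product binds collagen I fibrils, was the collagen with the smallest q for ORX in both genotypes. It was 18.8, 21.8 and 26.8 CPM in WT-sham and 38.1, 43.0 and 52.0 CPM in WT-ORX. In KO-sham it was 19.9, 21.8 and 24.6 CPM, and in KO-ORX 54.2, 56.1, 36.9, 51.3 and 54.6 CPM. The groups were far apart in both genotypes, with KO-ORX mouse 3 the lowest of its group. Col14a1 rose by 0.98 ± 0.10 in WT (q 1.2e-07) and by 1.21 ± 0.11 in KO mice (q 1.6e-08), and the KO value was 1.12 (q 1.1e-06) without KO-ORX mice 1 and 2, the highest q of the alternatives being 1.3e-06. With DHT in KO mice it was 38.9, 21.3, 34.4, 42.8 and 31.7 CPM with an empty tube and 8.44, 13.6 and 16.4 CPM with DHT. These groups did not overlap either. Col14a1 fell by 1.35 ± 0.28 (q 0.0032), a call that every alternative kept. In WT mice it was 15.9, 27.5, 32.3, 44.1 and 22.3 CPM with an empty tube and 8.97, 17.9 and 41.1 CPM with DHT, overlapping, with WT-DHT mouse 5 highest, and not called (-0.39 ± 0.28, q 0.38). The interaction of -0.95 (q 0.24) was not called.

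Col22a1, whose product sits where muscle fibres meet tendon, was 32.8, 19.1, 31.6, 21.1 and 27.7 CPM in KO-empty mice and 9.46, 13.3 and 20.3 CPM in KO-DHT. KO-DHT mouse 40 overlapped KO-empty mouse 33. Col22a1 fell by 0.89 ± 0.22 (q 0.009), and leaving out any of WT-empty mice 7, 14 and 49, WT-DHT mice 5, 8 and 34, KO-empty mice 17, 61 and 64 or KO-DHT mice 6, 16, 25 and 63 ended the call, with values of -0.79 to -0.89 and q up to 0.03. The call also went under library-size scaling (-0.92, q 0.018), with thinned counts (-0.85, q 0.012) and without the Acan libraries (-0.67, q 0.13, of a range of 0.003 to 0.13). In WT mice it was 21.5, 24.5, 24.6, 32.2 and 23.5 CPM with an empty tube and 16.8, 24.5 and 43.8 CPM with DHT, overlapping widely, and the interaction of -0.93 (q 0.11) was not called, except without WT-DHT mice 39 and 50 (-1.14, q 0.024, of a range of 0.024 to 0.45). For ORX it was called in neither genotype, with values of 0.13 (q 0.70) in WT and 0.24 (q 0.41) in KO mice.

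Col15a1 and Col18a1 encode the multiplexins, which lie between basement membrane and fibrils. Col15a1 was 31.4, 32.8 and 44.5 CPM in KO-sham and 62.5, 45.1, 44.5, 55.1 and 49.5 CPM in KO-ORX. The lowest KO-ORX mouse was level with KO-sham mouse 5, the highest of its group. Col15a1 rose by 0.53 ± 0.10 (q 0.00081) and kept the call under every alternative, at 0.48 (q 0.0059) without KO-ORX mice 1 and 2. The highest q over the alternatives was 0.006. It was 34.8, 35.5 and 36.9 CPM in WT-sham and 32.8, 42.1 and 45.5 CPM in WT-ORX, overlapping, and its interaction of 0.34 (q 0.39) was not called. Col18a1 was 7.15, 9.40 and 10.6 CPM in KO-sham and 15.4, 12.7, 9.64, 13.8 and 12.6 CPM in KO-ORX, where mouse 3 alone overlapped. Col18a1 rose by 0.51 ± 0.12 (q 0.0076), but not past the threshold without KO-sham mouse 2 (0.47), 3 (0.53), 4 (0.51) or 6 (0.45) or KO-ORX mouse 1 (0.43), 2 (0.51), 4 (0.48) or 5 (0.51), with q of 0.011 to 0.033. The Col18a1 call also went with a replicate block (0.50, q 0.012), limma-voom (0.49, q 0.017), thinned counts (0.49, q 0.02) and a fit of only the groups compared (0.51, q 0.017), and without KO-ORX mice 1 and 2 (0.41, q 0.073, of a range of 0.0016 to 0.073). Its interaction of 0.33 (q 0.56) was not called.

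Col7a1 encodes the anchoring fibril collagen that ties basement membranes to the matrix beneath. It was 12.2, 13.4 and 17.9 CPM in WT-sham and 7.96, 9.37 and 11.8 CPM in WT-ORX, with no overlap. Col7a1 fell by 0.56 ± 0.12 in WT mice (q 0.0018) and was at -0.43 (q 0.024, the highest of alternatives from 8.5e-05) without the Acan libraries and -0.46 (q 0.02) without the Ibsp libraries, both not called. In KO mice it was 8.75, 10.2 and 13.2 CPM after sham and 9.92, 7.52, 7.08, 8.97 and 9.04 CPM after ORX, overlapping and not called, with an interaction of 0.24 (q 0.68). With DHT in WT mice it was 11.9, 9.06, 10.7, 6.85 and 8.13 CPM with an empty tube and 14.4, 19.2 and 23.0 CPM with DHT. Every WT-DHT mouse was above every WT-empty mouse. Col7a1 rose by 0.99 ± 0.16 (q 4.8e-05), a call that every alternative kept. In KO mice it was 11, 10.4, 9.19, 7.03 and 7.52 CPM with an empty tube and 10.4, 11.2 and 16.6 CPM with DHT, overlapping and not called (0.40 ± 0.16, q 0.10), and the interaction of -0.59 (q 0.17) was not called.

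**Figure D3:**
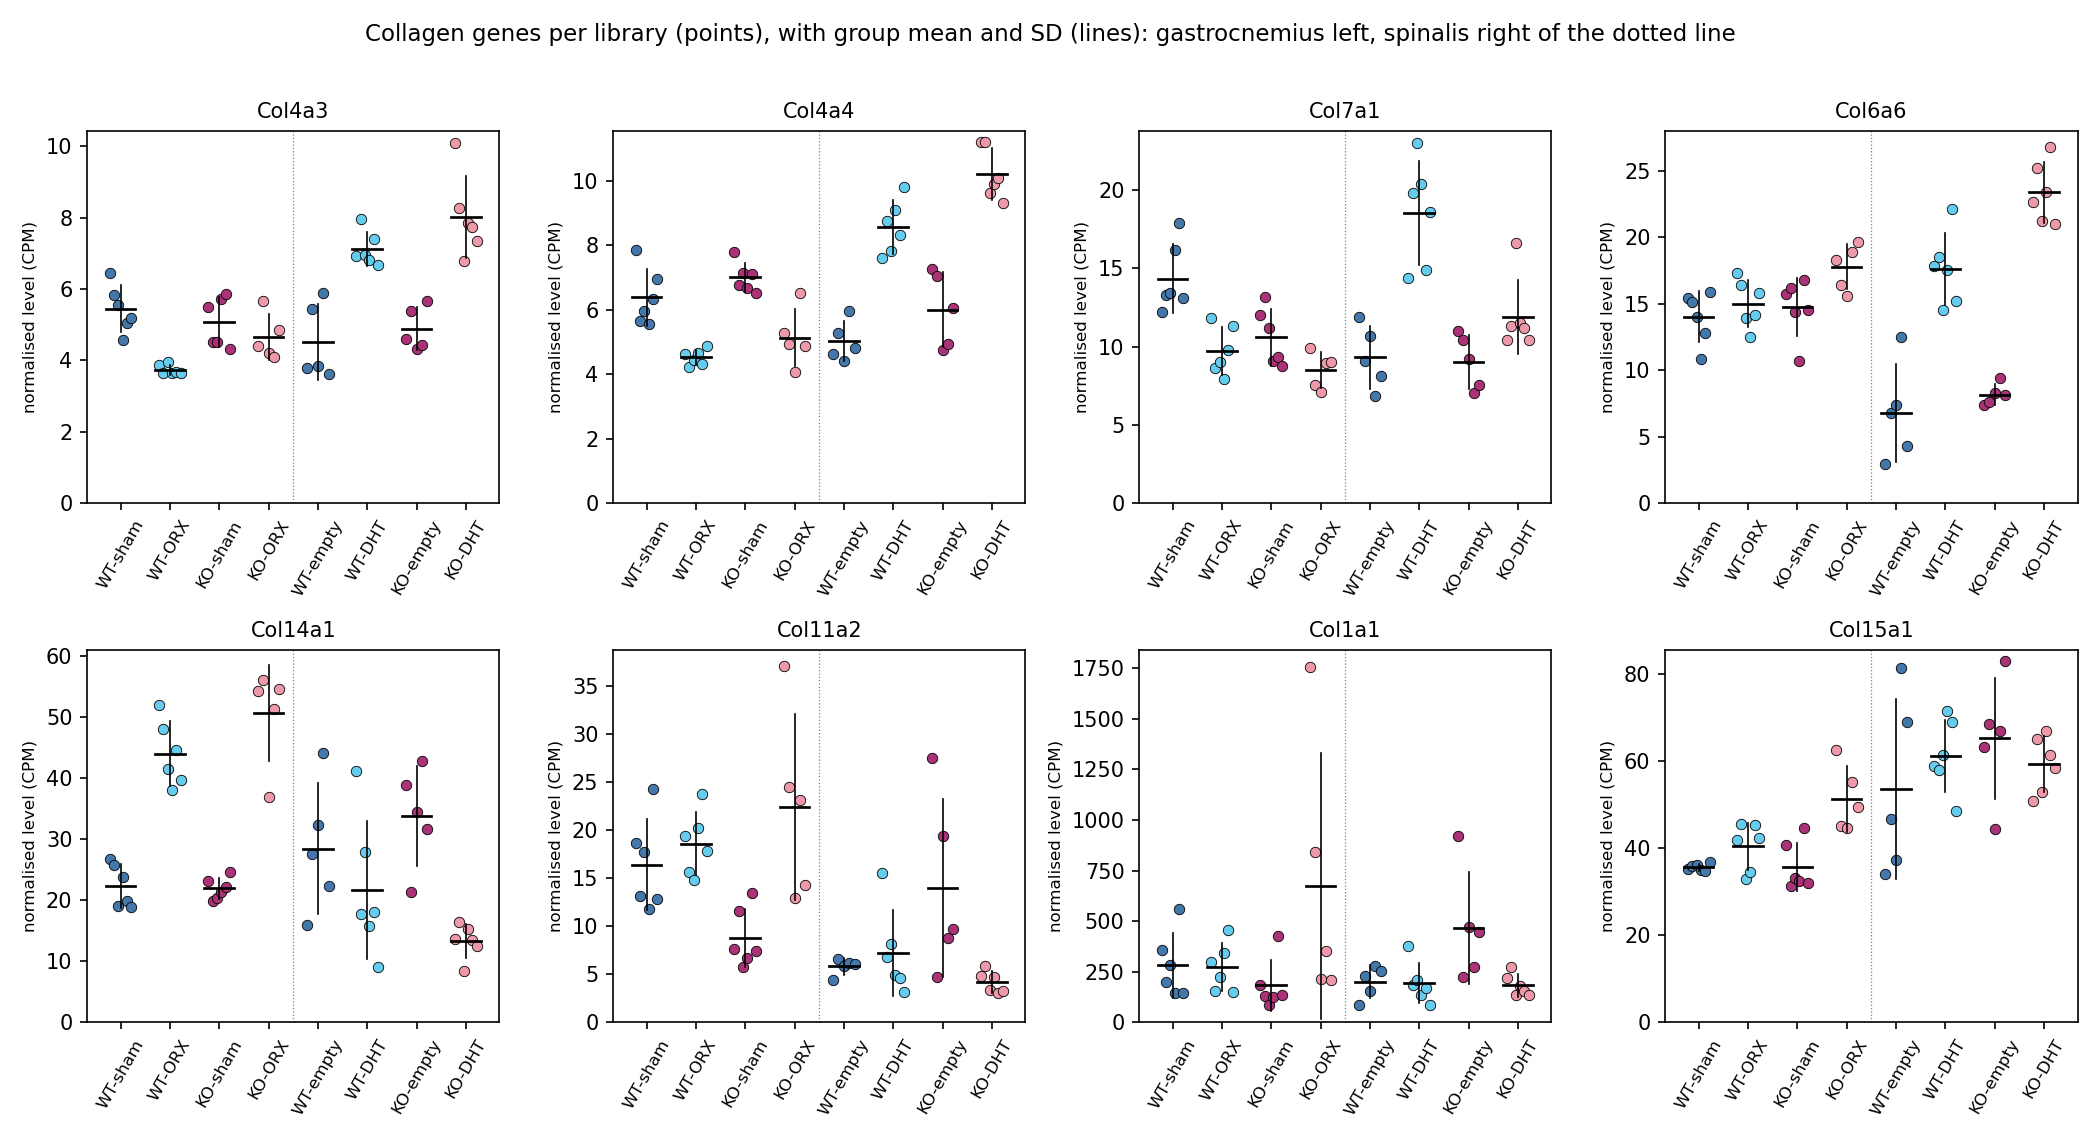
CPM of Col4a3, Col4a4, Col7a1, Col6a6, Col14a1, Col11a2, Col1a1 and Col15a1 in every library of the 8 groups, with group means and SD. Col4a4 lies at 4.22 to 4.86 CPM in WT-ORX, below all WT-sham mice, and at 7.6 to 9.81 CPM in WT-DHT, above all WT-empty mice.

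KO against WT gave few calls. In sham mice 1 of 42 collagens was called (2.38%, against 5.30% of all genes, 2.48% higher and 2.82% lower) and after ORX 1 of 42 (2.38%, against 3.80%, 1.07% higher and 2.73% lower), both times Col9a1, lower in KO. These counts are under the background. Col9a1, a chain of a collagen that coats cartilage fibrils, was 3.95, 5.18 and 6.33 CPM in WT-sham and 1.43, 1.69 and 3.24 CPM in KO-sham. After ORX it was 3.54, 3.88 and 5.23 CPM in WT and 1.66, 1.40, 1.73, 1.67 and 1.69 CPM in KO mice. No KO mouse reached a WT mouse in either pair. Col9a1 was lower in KO by 1.28 on the log2 scale (-1.28 ± 0.17, q 1.2e-05) after sham and lower after ORX (-1.37 ± 0.19, q 1.8e-05), and every alternative kept both calls. The sham count was 2 without WT-sham mouse 4, KO-sham mouse 2 or KO-ORX mouse 1, 3 or 5, and 3 without KO-sham mouse 5. After ORX, Col1a1 was 1.32 ± 0.48 higher in KO than in WT (q 0.11) and Col1a2 0.79 ± 0.35 higher (q 0.21), neither called. Without KO-ORX mice 1 and 2 these were -0.07 (q 0.97) and -0.24 (q 0.79). Over the collagens the median was -0.19 in sham mice (10 positive, 32 negative) and 0.22 after ORX (32 positive, 10 negative, or 22 and 20 without KO-ORX mice 1 and 2), beside -0.01 and 0.01 for all genes. Fibrillar collagens were 1 positive and 10 negative in sham mice.

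With empty tubes, edgeR called 0 of 41 collagens for KO minus WT (4.25% of all genes, 1.75% higher and 2.50% lower), DESeq2 and limma-voom also called 0, and 9 had an unadjusted p under 0.05, as had 23.4% of all genes. Leaving out KO-empty mouse 33 gave 1 call, Col11a2. Col1a1 was 1.22 ± 0.37 higher in KO than in WT (q 0.04) and Col1a2 0.90 ± 0.28 higher (q 0.048), neither called. Without the Acan libraries these were 0.65 (q 0.28, of a range of 0.017 to 0.28) and 0.55 (q 0.22, of a range of 0.019 to 0.22). All 11 fibrillar collagens were positive (median 0.60) under every scaling. With DHT, 2 of 41 were called (4.88%, against 11.6% of all genes, 5.13% higher and 6.51% lower), both lower, a share below the background. Col7a1 was lower in KO than in WT mice, 10.4, 11.2 and 16.6 against 14.4, 19.2 and 23.0 CPM, with KO-DHT mouse 25 in the WT range (-0.64 ± 0.15, q 0.0029). Col22a1 was also lower, 9.46, 13.3 and 20.3 against 16.8, 24.5 and 43.8 CPM, with WT-DHT mouse 15 highest (-0.86 ± 0.21, q 0.0042). Without WT-DHT mouse 15 neither was called (-0.56 and -0.64). The Col22a1 call also went without WT-DHT mouse 34 (-0.83) or KO-DHT mouse 6 (-0.82), 16 (-0.80) or 25 (-0.76) and in a fit of only the groups compared (-0.86, q 0.011, of a range of 0.00056 to 0.017). That fit called Col6a6 besides Col7a1, and limma-voom called Col4a5 besides Col7a1 and Col22a1. The count was 4 without WT-DHT mouse 39, and also 4 without WT-DHT mice 39 and 50, where Col2a1 and Col4a5 were called as well. Under library-size scaling neither gene was called and Col4a5 was. Over the collagens 12 were positive and 29 negative (median -0.07), against 21 and 20 under library-size scaling.

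The interaction asks whether genotype alters the treatment difference. For ORX, edgeR called 0 of 42 collagens (0.0228% of all genes), as did DESeq2 and limma-voom. No single library changed that count. By edgeR 15 of the 42 had an unadjusted p under 0.05, a larger share than the 9.61% of all genes. That difference was not tested, and the 15 were not recounted without KO-ORX mice 1 and 2. For DHT 2 of 41 were called (4.88%, against 3.24% of all genes, 1.34% higher and 1.90% lower), Col2a1 and Col11a2, both resting on Acan libraries. Col2a1 was 0.0866, 0.740, 0.135, 0.458 and 0.340 CPM in WT-empty mice and 0.136, 0.332 and 37.5 CPM in WT-DHT. It was 1.15, 0.238, 19.9, 0.818 and 0.681 CPM in KO-empty mice and 0.0458, 0.218 and 0.400 CPM in KO-DHT. WT-DHT mouse 5 and KO-empty mouse 61 were alone in being high. The interaction was -8.61 ± 2.0 (q 0.013), -4.38 (q 0.08) without WT-DHT mouse 5, -5.95 (q 0.081) without KO-empty mouse 61, -4.18 (q 0.35) with limma-voom, -8.61 with DESeq2, which gave no adjusted p, and -1.40 (q 0.53) without the Acan libraries, over a range of q from 0.0062 to 0.53. For Col11a2 the interaction was -2.07 ± 0.52 (q 0.024), -1.98 (q 0.051) without WT-empty mouse 4, -1.67 (q 0.066) without KO-empty mouse 17, -1.71 (q 0.13) with limma-voom and -0.82 (q 0.32) without the Acan libraries, over a range of q from 0.0057 to 0.32. The count was 1 without any one of those 4 mice and 4 without KO-empty mouse 33 or 62. It was also 4 without WT-DHT mice 39 and 50, where Col11a1 and Col22a1 were called besides Col2a1 and Col11a2.

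Genes that make, process, break down or bind collagen were counted as lists beside the all-gene medians, which lay between -0.01 and 0.01 in every comparison, and beside the share of all genes called. That share was 5.45% for ORX in WT and 5.57% in KO mice, and 11.3% for DHT in WT and 4.62% in KO mice. In lists this short 1 gene is a large share, and no list is called enriched from these counts. The positive and negative counts and medians of these lists and of the cell marker lists were made with all libraries only. How far those for ORX in KO mice rest on KO-ORX mice 1 and 2 was not tested. Of 19 genes for collagen synthesis and folding, 1 was called for ORX in WT mice (5.26%, which is the background; 10 positive, 9 negative, median 0.00) and 2 in KO mice (10.5%; 16 positive, 3 negative, median 0.15). Mia3, which loads collagen into transport vesicles, was 190, 199 and 209 CPM in WT-sham and 146, 154 and 162 CPM in WT-ORX. It was 177, 191 and 235 CPM in KO-sham and 141 to 164 CPM in KO-ORX. Neither pair of groups overlapped. Mia3 fell by 0.37 in WT (q 1.9e-05) and by 0.38 in KO mice (q 5.9e-05), while P3h3, a prolyl hydroxylase gene, rose by 0.53 in KO mice (q 0.0019). With DHT, 3 were called in WT mice (15.8%, median 0.04) and 2 in KO mice (10.5%, median 0.07). Plod2, whose enzyme prepares collagen for cross-linking, was 14.1 to 23.0 CPM in WT-empty and 6.15 to 9.74 CPM in WT-DHT. It was 10.6 to 20.8 CPM in KO-empty and 5.11 to 7.42 CPM in KO-DHT. The groups lay apart in both genotypes. Plod2 fell by 1.24 in WT (q 4.7e-06) and by 1.33 in KO mice (q 8.2e-06). Mia3 rose by 0.32 (q 0.00094) and P4hb, the gene of a prolyl hydroxylase subunit, fell by 0.24 (q 0.0018) in WT mice. Colgalt1, which adds sugars to collagen, fell by 0.25 (q 0.0028) in KO mice. No single library ended any of these calls. Library-size scaling ended that of Mia3 for DHT (0.25, q 0.021, the highest of alternatives from 7.3e-05), a fit of only the groups compared that of Colgalt1 (-0.26, q 0.015, the highest from 0.00025), and leaving out KO-ORX mice 1 and 2 that of P3h3 (0.42, q 0.032, the highest from 0.0002).

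Of 13 genes for propeptide processing and cross-linking, all were positive for ORX in KO mice (median 0.34), against 5 positive and 8 negative in WT mice (median -0.03). Tll1, a protease gene, rose by 0.69 in WT (q 0.0021) and by 0.83 in KO mice (q 0.00078). The WT call of Tll1 went with thinned counts (0.67, q 0.013), without the Ibsp libraries (0.66, q 0.019) and without the Acan libraries (0.60, q 0.029, of a range of 0.00016 to 0.029). Adamts3, which trims procollagen, was 0.998, 1.69 and 2.56 CPM in KO-sham and 3.07 to 4.76 CPM in KO-ORX, without overlap, and rose by 1.15 (q 0.00026). In KO mice given DHT it was 0.742 to 2.14 CPM with an empty tube and 0.311 to 0.978 CPM with DHT, overlapping. There Adamts3 fell by 1.29 (q 0.0094). The call was lost, with values of -1.37 to -1.08 and q up to 0.039, without WT-empty mouse 7, 14, 35 or 49, WT-DHT mouse 8, 15, 34 or 50, KO-empty mouse 17, 61 or 62, or KO-DHT mouse 16, 25, 40, 63 or 65. It was also lost under library-size scaling (-1.33, q 0.012), with limma-voom (-1.28, q 0.021), in a fit of only the groups compared (-1.30, q 0.034) and without the Acan libraries (-0.83, q 0.17, of a range of 0.0011 to 0.17). Of the list, edgeR called 0 for DHT in WT mice, with 6 at an unadjusted p under 0.05 (29.8% of all genes).

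Of 14 genes for collagen breakdown and its inhibitors, 11 were positive for ORX in KO mice (median 0.31) and 7 in WT mice (median -0.02). In KO mice Mmp2 rose by 0.41 (q 0.0018) and Mmp14 by 0.56 (q 0.0028), both collagen-cutting enzymes. The Mmp14 call was lost without KO-ORX mouse 1 (0.48) or 4 (0.49), with q up to 0.014. A fit of only the groups compared ended the calls of Mmp2 (0.41, q 0.015, of a range of 9.6e-06 to 0.028) and Mmp14 (0.56, q 0.018, of a range of 0.00022 to 0.02). All 14 were negative for KO minus WT in sham mice (median -0.29), with Mmp15 at 8.86 to 11.3 CPM in WT and 5.98 to 7.52 CPM in KO, which did not overlap (-0.55, q 0.00039). With DHT in KO mice Timp1, an inhibitor gene of low counts, fell by 2.30 (q 0.0026), a call lost without KO-empty mouse 17 (-2.01, q 0.012), in a fit of only the groups compared (-2.31, q 0.017) and without the Acan libraries (-1.83, q 0.045, of a range of 2.4e-05 to 0.045). Among 8 collagen receptor genes, Itgb1, an integrin gene, was 248 to 287 CPM in WT-sham and 218 to 237 CPM in WT-ORX, apart from each other, and fell by 0.22 (q 0.0021). Itgb1 was 191 to 211 CPM in WT-empty and 227 to 286 CPM in WT-DHT, also apart, and rose by 0.36 (q 0.00025). Its DHT interaction of -0.34 (q 0.047) was lost, with values of -0.35 to -0.31 and q up to 0.089, without any of the 5 WT-empty mice, WT-DHT mouse 5, 8, 15 or 34, KO-empty mouse 17, 33, 61 or 64, or KO-DHT mouse 6, 16, 25 or 63. Itgb1 was lower in KO-DHT than in WT-DHT (-0.30, q 0.0011). Library-size scaling ended every Itgb1 call: -0.18 for ORX (q 0.056, the highest of alternatives from 8.1e-05), 0.30 for DHT (q 0.025, the highest from 1.5e-06), -0.23 for KO-DHT minus WT-DHT (q 0.074, the highest from 3.2e-05) and -0.30 for the interaction (q 0.27, the highest from 0.0062). The interaction was also lost without the Acan libraries (-0.30, q 0.22), and the ORX call of Itgb1 without the Ibsp libraries (-0.19, q 0.013). Ddr2, a collagen receptor kinase gene, rose by 0.42 in KO-ORX (q 0.00033), and Itga2 fell by 0.68 in KO-DHT (q 0.0083). The Itga2 call was lost, with values of -0.72 to -0.61 and q up to 0.024, without WT-empty mouse 14 or 35, WT-DHT mouse 8, KO-empty mouse 17, 61, 62 or 64, or KO-DHT mouse 16, 25, 40, 63 or 65. It also went under library-size scaling (-0.72, q 0.015), with thinned counts (-0.62, q 0.019) and without the Acan libraries (-0.61, q 0.03, of a range of 0.0013 to 0.03).

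Of 13 proteoglycans and glycoproteins that bind fibrils, 3 were called for ORX in WT (23.1%, against 5.45% of all genes; 5 positive, 8 negative, median -0.19) and 3 in KO mice (23.1%, against 5.57%; 10 positive, 3 negative, median 0.44), of which 1, Lum, was left without KO-ORX mice 1 and 2. Lum, the lumican gene, was 35.7, 40.6 and 46.2 CPM in WT-sham and 57.1, 62.5 and 66.6 CPM in WT-ORX. It was 30.0, 45.0 and 51.6 CPM in KO-sham and 58.7 to 68.6 CPM in KO-ORX. Every ORX mouse was above every sham mouse of its genotype. Lum rose by 0.59 in WT (q 3.6e-05) and by 0.57 in KO mice (q 0.0002). In WT mice Aspn fell by 0.65 (q 0.00021) and Ogn by 0.55 (q 0.00021), both small proteoglycan genes. In KO mice Kera rose by 1.21 (q 0.0011) and Fmod by 1.23 (q 0.0027), both of tendon matrix. Fmod was not called without KO-ORX mouse 1 (1.03, q 0.014), nor either gene without KO-ORX mice 1 and 2 (Kera 0.70, Fmod 0.92). With DHT in WT mice Aspn rose by 1.01 (q 0.001) and Dcn, the decorin gene, by 0.54 (q 0.0012). With DHT in KO mice Lum was 38.9 to 66.1 CPM with an empty tube and 19.9 to 29.7 CPM with DHT, apart from each other, and fell by 0.98 (q 5.3e-05). Dcn rose by 0.51 there (q 0.0052), a call lost without KO-empty mouse 17, 33 or 64 or KO-DHT mouse 6, 16 or 40 (0.47 to 0.50, q up to 0.017). Under library-size scaling Dcn was called in neither genotype, at 0.48 in WT (q 0.015, the highest of alternatives from 3.9e-05) and 0.48 in KO mice (q 0.032, the highest from 0.0003). For KO minus WT in sham mice edgeR called 0 of the 13, with 10 at an unadjusted p under 0.05 (23.3% of all genes) and 12 negative (median -0.39).

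Of 10 basement membrane partners, 9 were positive for ORX in KO mice (median 0.23) and 4 in WT mice (median 0.00). Hspg2, the perlecan gene, was 69.9, 76.1 and 103 CPM in KO-sham and 97.4 to 173 CPM in KO-ORX, overlapping, and rose by 0.74 (q 4.3e-05). The laminin genes Lamb2 and Lamb1 rose by 0.41 (q 0.00096) and 0.29 (q 0.0019) in KO mice, calls lost in a fit of only the groups compared (0.41, q 0.012, of a range of 8.5e-06 to 0.013, and 0.29, q 0.012, of a range of 0.00023 to 0.012). Lama2, also a laminin gene, fell by 0.28 in WT mice (q 0.0028), not called without WT-sham mouse 3 (-0.26, q 0.01), under library-size scaling (-0.24, q 0.01), without the Ibsp libraries (-0.29, q 0.011) or without the Acan libraries (-0.26, q 0.027, of a range of 0.00027 to 0.027). With DHT, Lamb2 fell by 0.41 in WT (q 0.00075) and by 0.52 in KO mice (q 0.00014). In WT mice Lamc1 rose by 0.35 (q 0.0025), Lama4 by 0.37 (q 0.0039) and Nid2, a nidogen gene, by 0.43 (q 0.0077). Each of these 3 calls was lost when some single libraries were left out. For Lamc1 these were WT-empty mouse 4 and WT-DHT mouse 8 (0.28 and 0.31, q up to 0.011). For Lama4 they were WT-empty mice 4 and 14 and WT-DHT mice 5 and 39 (0.28 to 0.36, q up to 0.014). For Nid2 they were WT-empty mice 4, 7, 14 and 49 and WT-DHT mice 5, 8, 15, 34 and 39 (0.36 to 0.45, q up to 0.03). Library-size scaling ended the calls of Lamc1 (0.28, q 0.042, the highest of alternatives from 0.0003), Lama4 (0.29, q 0.052, the highest from 0.00074) and Nid2 (0.36, q 0.047, the highest from 0.0019). A fit of only the groups compared also ended those of Lamc1 (0.34, q 0.011) and Lama4 (0.36, q 0.011). Leaving out the Acan libraries ended that of Lama4 (0.34, q 0.011), and thinned counts that of Nid2 (0.43, q 0.01). Without WT-DHT mice 39 and 50 Lama4 (0.34, q 0.016) and Nid2 (0.46, q 0.012) were not called either.

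Of 11 genes of the TGF-beta system, all were positive for ORX in KO mice (median 0.34) and 6 in WT mice (median 0.05), where edgeR called 0 and 5 had an unadjusted p under 0.05 (22.3% of all genes). Ltbp4, which binds latent TGF-beta in the matrix, was 18.5, 22.4 and 28.6 CPM in KO-sham and 29.5 to 54.9 CPM in KO-ORX, without overlap, and rose by 0.96 (q 4.1e-06). Its relative Ltbp3 rose by 0.64 (q 0.00076). Tgfb3, a ligand gene, was lower in KO than in WT after sham (-0.32, q 0.0019), after ORX (-0.30, q 0.0055) and with DHT (-0.48, q 2.8e-05). The ORX call was lost without WT-ORX mouse 1 or 5 or KO-ORX mouse 2, 3, 4 or 5 (-0.31 to -0.27, q up to 0.023). It also went under library-size scaling (-0.26, q 0.049, of a range of 0.0009 to 0.049). Tgfbr1, a receptor gene, was lower in KO after sham (-0.23, q 0.0032), not called without KO-sham mouse 6 (-0.21, q 0.011), in a fit of only the groups compared (-0.22, q 0.012) or under library-size scaling (-0.25, q 0.016, of a range of 0.00052 to 0.016). With DHT in WT mice Ltbp1 rose by 0.40 (q 0.0015) and Tgfbr3 by 0.25 (q 0.0061). Tgfbr3 was not called without WT-empty mouse 4, 7, 14 or 49 or WT-DHT mouse 5, 8 or 15 (0.22 to 0.26, q up to 0.022). In KO mice Ltbp1 rose by 0.36 (q 0.0074), not called without WT-DHT mouse 8 or 34, KO-empty mouse 33, 61 or 64 or KO-DHT mouse 6, 16 or 40 (0.31 to 0.39, q up to 0.026). Ltbp4 fell by 0.55 there (q 0.0088), not called without WT-empty mouse 14, WT-DHT mouse 5 or 8, KO-empty mouse 17, 33, 62 or 64 or KO-DHT mouse 6, 25, 40, 63 or 65 (-0.57 to -0.49, q up to 0.026). Library-size scaling ended the DHT calls of Ltbp1 in WT (0.33, q 0.033, the highest of alternatives from 0.00016) and KO mice (0.33, q 0.053, the highest from 0.0014), of Tgfbr3 (0.18, q 0.14, the highest from 0.0017) and of Ltbp4 (-0.58, q 0.013, of a range of 0.0011 to 0.026). A fit of only the groups compared ended those of Ltbp1 in KO mice (0.35, q 0.025) and Tgfbr3 (0.24, q 0.022), and limma-voom that of Ltbp4 (-0.55, q 0.01). Leaving out the Acan libraries ended those of Ltbp1 in KO mice (0.43, q 0.011), Tgfbr3 (0.22, q 0.02) and Ltbp4 (-0.62, q 0.013). Without WT-DHT mice 39 and 50 Tgfbr3 was not called (0.26, q 0.014).

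All 8 tendon cell markers were positive for ORX in KO mice (median 0.65), with Kera and Fmod called. All 8 were negative for KO minus WT in sham mice (median -0.69, 0 called by edgeR, 5 of the 8 at an unadjusted p under 0.05, against 23.3% of all genes). Summed, they were 1025, 788, 396, 740 and 477 CPM in KO-ORX mice 1 to 5, and 422, 319, 224, 345, 734 and 368 CPM in KO-sham mice 1 to 6, so the groups overlapped with mouse 1 of KO-ORX highest. Thbs4 was their most abundant gene in gastrocnemius (222 CPM) and Fmod in spinalis (51.2 CPM), and none was at 0 in any library. In spinalis they were 7 positive and 1 negative for DHT in WT mice (median 0.46) and all 8 negative in KO mice (median -0.52). Their sums were 157, 91.3, 166, 193 and 177 CPM in KO-empty mice and 149, 200, 77.4, 123, 72.5 and 91.9 CPM in KO-DHT mice 6, 16, 25, 40, 63 and 65, with overlap. Of 8 cartilage markers 5 had counts in gastrocnemius and 4 in spinalis, with Chad the most abundant (26.1 and 3.82 CPM) and Acan at 0 in some libraries. They summed to 103 CPM in WT-sham mouse 5 and 78.8 CPM in KO-sham mouse 5, the highest libraries of gastrocnemius, and to 18.1 CPM in WT-DHT mouse 5, the highest of spinalis. All 5 were positive for ORX in KO mice (median 0.34). All 4 were negative in the DHT interaction (median -2.38), where 3.24% of all genes were called. There Acan and Matn3, named after their values were seen, were called with the Acan libraries included. The part of tendon and cartilage tissue in the collagen results was not tested.

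Of 10 fibroblast markers (most abundant Gsn, 1269 and 1297 CPM), 2 of which are also on the proteoglycan list, 3 were called for ORX in WT (30.0%, against 5.45% of all genes) and 2 in KO mice (20%, against 5.57%), with medians of 0.00 and 0.05. Their sum was 2839 to 3619 CPM in WT-sham and 2361 to 2726 in WT-ORX, without overlap. It was 2474 to 2866 CPM in KO-sham and 2010 to 2518 in KO-ORX, overlapping. In spinalis it was 1906 to 2484 CPM in WT-empty and 2061 to 2963 in WT-DHT, and 1853 to 2219 in KO-empty and 2057 to 2652 in KO-DHT, overlapping in both genotypes. The sums were not tested. For DHT 2 of the 10 were called in WT (20%, against 11.3%) and 2 in KO mice (20%, against 4.62%), with medians of -0.10 and -0.06. These shares of all genes also apply to the lists that follow, where 1 gene of 6 is 16.7%. Of 6 endothelial markers (Pecam1, 69.1 and 59.8 CPM), all were positive for DHT in both genotypes, with 2 called in WT and 1 in KO mice. Of 6 mural cell markers (Rgs5, 522 and 336 CPM), 1 was called for ORX in KO mice and 1 for DHT in each genotype. Of 6 Schwann cell markers (Mbp, 22 and 15.5 CPM), edgeR called 0 in every comparison, with at most 2 at an unadjusted p under 0.05 (9.61% to 29.8% of all genes). Of 6 macrophage markers (Mrc1, 44.8 and 42.9 CPM), 1 was called for ORX in WT mice and 0 for DHT in either genotype, with 0 at an unadjusted p under 0.05 for DHT (29.8% of all genes in WT and 25.2% in KO mice). Of 6 fat cell markers (Fabp4, 204 CPM in gastrocnemius, and Cfd, 283 CPM in spinalis), 1 was called, for DHT in WT mice. Of 4 satellite cell markers (Chodl, 18.4 and 11.3 CPM) 2 were called for KO minus WT with DHT, where 11.6% of all genes were called. Of the 8 muscle fibre markers, 1 was called for ORX in WT and 2 in KO mice, all lower, and 0 by edgeR for DHT, with 2 and 4 at an unadjusted p under 0.05 in WT and KO mice (29.8% and 25.2% of all genes). Without KO-ORX mice 1 and 2, the KO-ORX calls of P3h3, Mmp2, Mmp14, Kera, Fmod, Lamb1 and Lamb2 were lost. In that order the values were then 0.42, 0.31, 0.51, 0.70, 0.92, 0.29 and 0.37. With all libraries they were 0.53, 0.41, 0.56, 1.21, 1.23, 0.29 and 0.41. The groups hold 5 or 6 mice each, and RNA levels say nothing of collagen protein, which was not analysed here.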

How the data were processed

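RNA of 45 muscle samples was studied, 1 library per mouse. Per the labels, total RNA libraries were made with TruSeq Stranded Total RNA GOLD. The authors aligned reads with STAR 2.7.1b, marked duplicates with Picard 2.20.2 and counted reads per gene with featureCounts of Subread 2.0.0 on GRCm39, and the deposited values are these raw counts. The annotation release and strand setting are not stated. The tables hold 17514 genes for gastrocnemius and 16987 for spinalis, and requiring 2 libraries at 0.5 CPM removed none.

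Each experiment was fitted with edgeR 4.0.16 in R 4.3.3 (quasi-likelihood, TMM scaling, 1 mean per group, prior count 2 for log2 CPM), with p adjusted over all genes. The thresholds were 0.01, and 0.05 for the interaction. Recovery of known changes was tested on simulated data, and no result given here rests on that test. DESeq2 1.42.0, limma 3.58.1 (voom), library-size scaling, thinning to the smallest library, a minimum of 10 counts per library, wider thresholds of 0.05 and 0.1, a fit of only the groups compared, a replicate block and leaving out each library were also tried. Leaving out the Acan libraries, the Ibsp libraries, KO-ORX mice 1 and 2, or WT-DHT mice 39 and 50, was added after the data were seen. Tables and figures used Python 3.11.15 with pandas 2.3.3, NumPy 2.4.6 and Matplotlib 3.10.9. Symbols and exon lengths come from GENCODE M21 (GRCm38), so lengths are of an earlier build than the counts. Spinalis columns carry mouse numbers, matched to the labels by group only.

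Collagens and all lists (synthesis and folding, processing and cross-linking, breakdown, receptors, fibril-binding proteins, basement membrane partners, TGF-beta, and markers of fibroblasts, tendon, cartilage, endothelial, mural, Schwann, macrophage, fat, satellite cells and muscle fibres) were chosen with earlier results of these data known. Named genes are Actn3; every called collagen, up to 10 per comparison by smallest p; Col1a1, Col1a2, Col3a1, Col4a1, Col4a2, Col5a1, Col6a1, Col6a2, Col6a3, Col15a1 and Col22a1; up to 5 called genes per related list and comparison by smallest p; and the most abundant gene of each marker list with any marker at 0.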

Additional observations from a re-analysis of the deposited data

Results flagged for a closer look

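Dixon's test was run for the collagens on a fixed list, chosen with earlier results of these data known, and for those called. It was not run for the remaining collagens. The test used log2 CPM, whereas the values printed below are CPM. Among these 172 combinations of collagen and group, 11 held a mouse far from the others by that test (critical value 0.71 for 5 mice and 0.625 for 6), where chance gives about 1 in 20. In gastrocnemius these were Col14a1 in KO-ORX mouse 3 (36.9 CPM, low), Col2a1 in KO-sham mouse 6 (2.91, low), Col4a1 and Col4a2 in KO-ORX mouse 1 (214 and 95.5, high), Col6a3 in WT-sham mouse 4 (107, low), Col6a6 in KO-sham mouse 4 (10.7, low) and Col9a1 in KO-ORX mouse 2 (1.40, low). In spinalis they were Col11a2 in WT-empty mouse 4 (4.37, low), Col2a1 in WT-DHT mouse 5 (37.5, high), Col6a2 in WT-DHT mouse 50 (72.6, low) and Col7a1 in KO-DHT mouse 25 (16.6, high). Among the collagens tested, KO-ORX mouse 1 appears with 2 genes and the other mice with 1 each.

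The DHT difference depended on genotype for 2 collagens by the edgeR interaction test, Col2a1 (-8.61) and Col11a2 (-2.07), and neither was called without the Acan libraries.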

How the results depend on the processing

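Each fold change of the named genes was counted once for each alternative it was run under. Under the alternatives that keep all libraries or leave out several, 902 such cases kept direction and side of the threshold. A further 98 lost their call, 6 gained one and 2 reversed. When 1 library was left out, 2477 cases were kept, 172 lost the call and 11 gained one. Without KO-ORX mice 1 and 2, KO-ORX minus WT-ORX reversed for Col1a1 (-0.07) and Col1a2 (-0.24). The cause of these changes was not tested.

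The number of collagens called changed by more than 1.5 times in these cases. With DESeq2 it was 3 for KO-sham minus WT-sham (7.14% of the list, against 7.34% of all genes) and 2 for KO-ORX minus WT-ORX (4.76%, against 5.33%). Thinned counts, the replicate block and a fit of only the groups compared each gave 2 for KO-sham minus WT-sham. That is 4.76%, against 5.03%, 5.26% and 4.39% of all genes. The last gave 3 for KO-ORX minus KO-sham (7.14%, against 2.77%). At the wider threshold, which can only add calls, it was 16 for KO-ORX minus KO-sham (38.1%, against 11% of all genes). It was 4 for KO-sham minus WT-sham (9.52%, against 10.5%) and 2 for KO-ORX minus WT-ORX (4.76%, against 7.19%). It was 7 for WT-DHT minus WT-empty (17.1%, against 18.1%) and 11 for KO-DHT minus KO-empty (26.8%, against 10.8%). It was 3 for KO-empty minus WT-empty (7.32%, against 9.17%), 4 for KO-DHT minus WT-DHT (9.76%, against 18.7%) and 4 for the DHT interaction (9.76%, against 4.88%). Shares below that of all genes are no result about collagens as a list. Without KO-ORX mice 1 and 2 the number was 2 for KO-ORX minus KO-sham (4.76%, against 3.09%). Library-size scaling gave 1 for KO-DHT minus WT-DHT (2.44%, against 11.7%). Without WT-DHT mice 39 and 50 it was 4 for KO-DHT minus WT-DHT (9.76%, against 9.65%) and 4 for the DHT interaction (9.76%, against 3.9%). For the DHT interaction limma-voom gave 0 (3.03% of all genes) and a minimum of 10 counts in every library 1 (2.63%, against 3.49%). Leaving out the Acan libraries gave 0 there (1.98% of all genes) and 3 for KO-DHT minus KO-empty (7.32%, against 2.2%). Leaving out the Ibsp libraries changed no count by that much.

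Leaving out 1 library gave 4 to 5 for WT-ORX minus WT-sham, 4 to 12 for KO-ORX minus KO-sham, 1 to 3 for KO-sham minus WT-sham, 1 for KO-ORX minus WT-ORX, 0 for the ORX interaction, 4 for WT-DHT minus WT-empty, 5 to 8 for KO-DHT minus KO-empty, 0 to 1 for KO-empty minus WT-empty, 0 to 4 for KO-DHT minus WT-DHT and 1 to 4 for the DHT interaction. The shares of all genes called in these fits are not given, so the ranges describe how the counts vary and nothing about collagens as a list. In gastrocnemius, 6 of 33 same-numbered pairs of libraries correlated above 0.1 (range -0.15 to 0.188), and the best match had the same number in 11 of 66 cases. The other group holds 5 or 6 mice, so chance gives 1 in 5 or 1 in 6, and no pairing is read from these values. No paired analysis was possible for spinalis because its mouse numbers differ between groups. Low counts limit the scarcest genes, such as Col2a1 in spinalis.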
